A study of Homo sapiens with 9 samples.

Results

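The G1/S and DNA replication genes are 44 protein-coding genes that act as a human cell passes from G1 into S phase and copies its DNA, from origin licensing and the replicative helicase to polymerases, nucleotide supply, E2F factors and E-type cyclins. They were chosen by gene name, with no measured value in the rule but with earlier results of these data known. All 44 were found among the 26475 gene rows of the count table. In the GENCODE annotation of GRCh38 they lie on 20 chromosomes. Each was read by bulk RNA sequencing in the breast adenocarcinoma line MDA-MB-231, a triple-negative one of human origin, in 9 libraries from 3 groups of 3. The ACSL4 knockdown cells carried pLKO.1-shACSL4, a plasmid for a short hairpin RNA against ACSL4, the enzyme that couples arachidonic and other polyunsaturated fatty acids to coenzyme A. The PRGL493 group was the empty-vector line treated with PRGL493, which inhibits ACSL4. The control cells carried the empty pLKO.1 vector and no drug, so all 9 libraries come from stably transduced cells. The 3 libraries of a group are described as batches of the same engineered cells, and p-values therefore measure the spread between batches. The control plasmid holds no hairpin, 1 hairpin plasmid is named, and the labels give neither the dose, the time nor the vehicle of PRGL493. The title of the study concerns ACSL4, histone acetylation and SNAIL in metastasis; its design sets both treatments against the control cells, and the replication genes are read from those comparisons here.

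As background, the proteins of these genes act in order. In G1 the origin recognition complex, CDC6 and CDT1 load the ring of MCM2 to MCM7 onto DNA, which licenses an origin. Cyclin E with its kinase then releases E2F factors from the retinoblastoma protein, E2F factors switch on many of these same genes, and CDC45 and the GINS complex turn the loaded ring into an active helicase that polymerases, the PCNA clamp and its loader follow. In proliferating cells the messages of many of these genes peak around the G1/S boundary, and tumour lines in exponential growth express all parts of the machinery. In bulk RNA a larger share of cells in S phase and more message per cell cannot be told apart.

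The libraries held 28673940 to 43027217 counts each, and every member passed the filter on low counts, with 87 to 8426 counts per library. Levels are given as CPM, each count relative to its library's total, scaled by TMM factors, which correct for library composition. ACSL4 stood at 23.7 to 29.5 CPM in the knockdown libraries, 333 to 360 CPM in the PRGL493 libraries and 339 to 366 CPM in the control libraries, so the knockdown label is borne out by its target and the inhibitor left the message near the control level. VIM, KRT8 and KRT18 were among the markers listed for mesenchymal and basal breast cancer lines, and do not stand for all of them. VIM was at 1610 to 1810 CPM in knockdown, 1660 to 1690 CPM in PRGL493 and 1700 to 1740 CPM in control libraries. KRT8 was less steady, at 337 to 406 CPM in knockdown, 458 to 485 CPM in PRGL493 and 416 to 448 CPM in control libraries. KRT18 was at 371 to 441, 359 to 366 and 381 to 402 CPM in the same order. The hormone receptor messages ESR1 and PGR and the luminal factor FOXA1 reached at most 1, 6 and 2 counts in a library. The other luminal and HER2 markers were present, with ERBB2 at 68.1 to 73.2 CPM in knockdown, 87.7 to 104 CPM in PRGL493 and 71.9 to 79.5 CPM in control libraries, and GATA3 at 13.8 to 14.8 CPM in knockdown, 13.4 to 15.2 CPM in PRGL493 and 10.9 to 11.4 CPM in control libraries. Of the leukocyte markers CD3E and PTPRC reached at most 1 and 3 counts, and CD14 lay at 33.8 to 41 CPM in knockdown, 19.6 to 22.3 CPM in PRGL493 and 23.9 to 28.6 CPM in control libraries. The endothelial markers stayed at or below 3.11 CPM. COL1A2, one of 4 fibroblast markers, was at 88.2 to 90.6 CPM in knockdown, 12.1 to 13 CPM in PRGL493 and 20.7 to 22.9 CPM in control libraries, while PDGFRA and DCN reached at most 7 and 3 counts. COL1A1, the remaining one, was at 13.3 to 16.6 CPM in knockdown, 7.96 to 9.65 CPM in PRGL493 and 15.2 to 19.9 CPM in control libraries. Reads of 19 members could be shared with another gene whose exons overlap, in 16 on the other strand, and PCNA, RFC3, RFC5, RPA2, FEN1, RRM2 and TYMS have named pseudogenes, so their counts are less certain.

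Both treatments were accompanied by higher replication gene messages. In ACSL4 knockdown cells 34 of the 44 members were higher than in control cells and none was lower, at an adjusted p below 0.05 in edgeR's quasi-likelihood test across 14135 genes. The median log2 fold change of the members was 0.31, a fold of 1.24, and single values ran from −0.14 to 0.88. In PRGL493 cells 40 of 44 were higher than in control cells and none was lower, with a median of 0.47, a fold of 1.38, and a range of −0.03 to 1.07. Over all genes tested, 14.7% were called higher and 15.3% lower in knockdown cells (30.1% either way), and 21.4% were called higher and 20.4% lower with PRGL493 (41.8% either way), with medians of 0.00 and 0.01. Libraries of the groups compared did not overlap in 79.5% of members in knockdown against control, against 42% of all genes tested. The shares were 95.5% against 57.2% with PRGL493 and 63.6% against 56% between the treatments. Separate libraries in a single gene were therefore common in these data. The shifts were modest in size. A change of at least 1.5-fold was estimated for 2 members in knockdown cells, ORC1 and ORC6 (4.55%, against 8.69% of all genes tested). With PRGL493 it was estimated for 13 members (29.5%, against 13.1% of all genes tested).

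The shift was present in every library of both treatments. The members' median log2 level, set against the mean of the control libraries, was 0.26, 0.36 and 0.27 in the knockdown libraries, 0.52, 0.44 and 0.45 in the PRGL493 libraries and 0.01, 0.01 and −0.02 in the control libraries. The libraries of the 3 groups did not overlap on this measure. The members took 0.235% to 0.251% of all reads in knockdown libraries and 0.27% to 0.274% in PRGL493 libraries, against 0.193% to 0.198% in control libraries. Knockdown library 2 stood apart from its group in transcript length. Each gene was set against its mean over all libraries, knockdown library 2 included. On that scale its quartile of shortest transcripts (up to 2020 bases) had a median log2 difference of 0.17. Its quartile of longest (4825.5 bases or more) had one of −0.17, while the other 8 libraries stayed between −0.07 and 0.06 on both. Without that library 32 members were called higher in knockdown cells, with a median of 0.27. With the trend of counts with transcript length and GC content removed from every library, 35 were called higher and 1 lower in knockdown cells, with a median of 0.28.

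**Figure D1:**
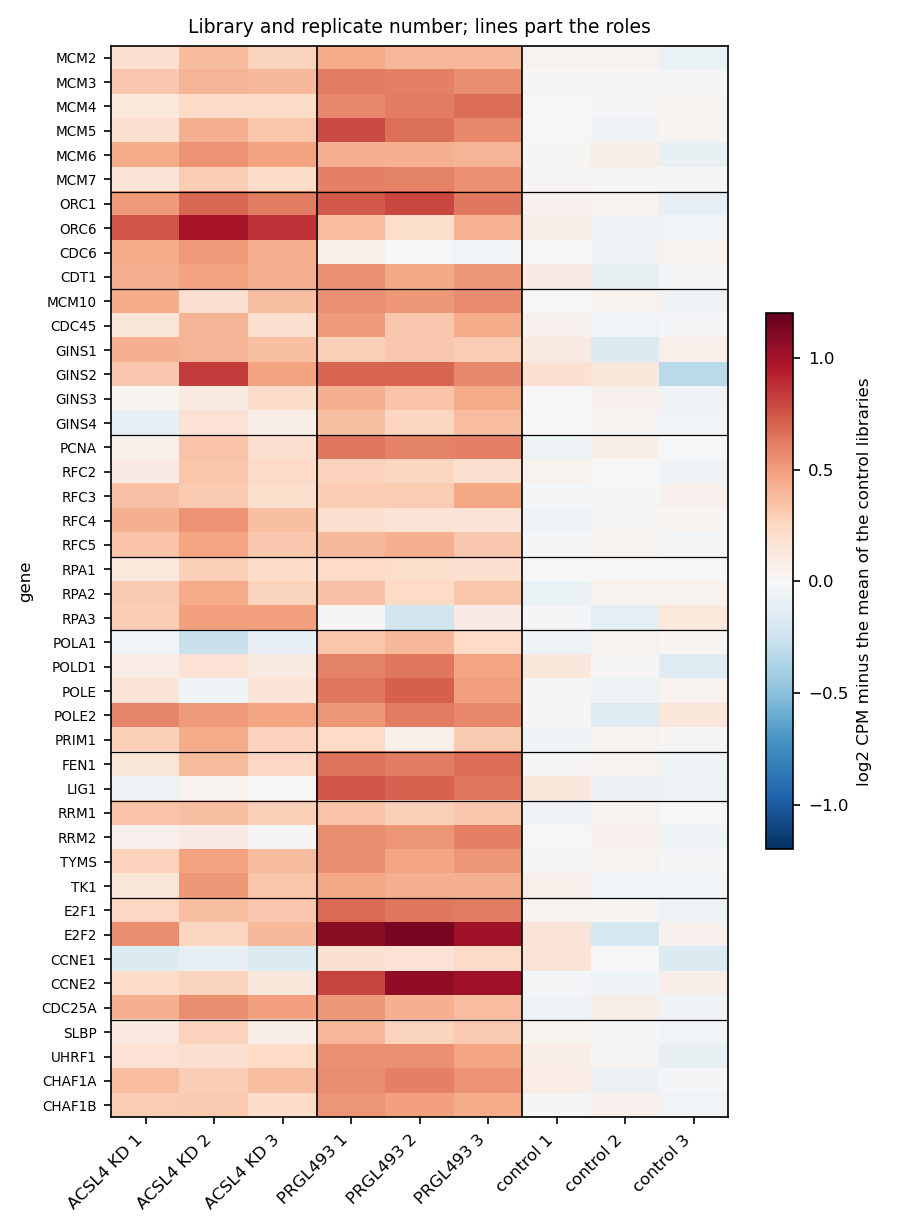
Log2 CPM of each of the 44 genes (rows, grouped by role) in each of the 9 libraries (columns), minus the mean of the 3 control libraries, with red for higher and blue for lower. Most rows are red in both treatments, more deeply with PRGL493, while CDC6 and RPA3 are red in the knockdown columns and pale in the PRGL493 columns. In the knockdown columns LIG1, RRM2 and POLE are among the pale rows, and POLA1 and CCNE1 lean to blue.

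Promoters of the members often held E2F-type letters. E2F factors are known to bind sites close to TTTGGCGC or TTTCCCGC, and RefSeq promoters (GRCh38.p14, 250 bases before to 50 after the start) were found for 38 members. Any of TTTGGCGC, TTTCCCGC, TTTCGCGC or TTTGCCGC, on either strand, stood in 20 of these 38 (52.6%), against 5.3% of 10439 promoters of all genes tested and 3.33% of all 27305 promoters. The letters stood in 2 of 20 promoters of G2/M genes (10%), and CCAAT on either strand, which NF-Y binds, stood in 22 of 38 members (57.9%), 16 of 20 G2/M genes (80%) and 36.4% of the genes tested. The 20 members with E2F-type letters had median log2 fold changes of 0.34 in knockdown cells and 0.52 with PRGL493, against 0.30 and 0.41 in the 18 without, and 16 of 20 against 14 of 18 were called higher in knockdown cells, with 19 of 20 against 16 of 18 called higher with PRGL493. E2F factors are known to switch on many of these genes, so the choice of members itself favoured a high share of E2F-type letters. A match is a description of letters and not a bound site.

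Windows of 160 bases that end just before the start are printed for 6 members, with the E2F-type letters of either strand in capitals, because they show how the letters lie in genes that differ in their response. MCM6 (chr2:135876444-135876603, minus strand) had 4 matches in 2 pairs, the matches of each pair overlapping on opposite strands. PCNA (chr20:5126623-5126782, minus), E2F2 (chr1:23531234-23531393, minus), CDC25A (chr3:48188418-48188577, minus) and LIG1 (chr19:48170345-48170504, minus) had 1 match each, and E2F1 (chr20:33686386-33686545, minus) had 2.
MCM6: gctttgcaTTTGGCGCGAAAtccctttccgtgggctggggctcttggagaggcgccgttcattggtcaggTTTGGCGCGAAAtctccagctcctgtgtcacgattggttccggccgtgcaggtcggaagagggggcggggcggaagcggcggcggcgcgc
PCNA: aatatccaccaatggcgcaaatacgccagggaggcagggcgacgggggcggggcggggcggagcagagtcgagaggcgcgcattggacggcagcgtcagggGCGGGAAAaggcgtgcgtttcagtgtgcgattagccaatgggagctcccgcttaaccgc
E2F1: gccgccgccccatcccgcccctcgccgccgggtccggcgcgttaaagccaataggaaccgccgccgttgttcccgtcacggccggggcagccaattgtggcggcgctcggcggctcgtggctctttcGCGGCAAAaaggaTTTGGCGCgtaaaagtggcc
E2F2: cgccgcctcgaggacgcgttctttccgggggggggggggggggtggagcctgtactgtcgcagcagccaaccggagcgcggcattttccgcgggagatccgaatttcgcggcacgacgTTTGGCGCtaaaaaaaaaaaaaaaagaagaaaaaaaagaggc
CDC25A: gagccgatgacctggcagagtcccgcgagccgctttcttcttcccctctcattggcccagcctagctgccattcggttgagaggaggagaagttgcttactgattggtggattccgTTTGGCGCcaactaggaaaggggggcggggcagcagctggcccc
LIG1: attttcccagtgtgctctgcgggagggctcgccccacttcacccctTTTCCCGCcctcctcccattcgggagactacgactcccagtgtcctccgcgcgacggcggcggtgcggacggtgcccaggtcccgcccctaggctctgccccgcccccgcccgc

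The 6 subunits of the MCM2-7 helicase, the ring that unwinds DNA at the fork, were all higher in both treatments. MCM6 had 102, 109 and 105 CPM in knockdown libraries, 101, 101 and 99.9 CPM in PRGL493 libraries and 75.8, 79 and 70.7 CPM in control libraries. Every treated library lay above every control library. The log2 fold changes against control were 0.48 ± 0.054 (SE; adjusted p = 5.56e-06) in knockdown cells and 0.42 ± 0.055 (adjusted p = 1.32e-05) with PRGL493. Its promoter, printed above, held 4 E2F-type matches, the most of the 38 promoters, but as 2 overlapping pairs. The promoters of MCM3 and MCM7 each held 2 matches that did not overlap. MCM3 had 153, 162 and 160 CPM in knockdown, 188, 186 and 179 CPM in PRGL493 and 123, 123 and 120 CPM in control libraries. The 3 groups were separate, with PRGL493 highest, and the log2 fold changes were 0.37 ± 0.048 (adjusted p = 2.56e-05) in knockdown cells and 0.60 ± 0.048 (adjusted p = 6.79e-08) with PRGL493. MCM6 is the subunit with the largest change in knockdown cells, and with PRGL493 its estimate was below those of MCM3, MCM4, MCM5 and MCM7.

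The other MCM subunits were also separate from control in every library. MCM4 was at 81.1, 87.4 and 86.7 CPM in knockdown, 111, 114 and 118 CPM in PRGL493 and 74, 73 and 76 CPM in control libraries. Its change was small in knockdown cells (0.20 ± 0.053, adjusted p = 0.0109, and 0.0529 without control library 2) and over 1.5-fold with PRGL493 (0.62 ± 0.053, adjusted p = 1.25e-07). MCM7 was at 150, 167 and 157 CPM in knockdown, 205, 204 and 198 CPM in PRGL493 and 136, 133 and 136 CPM in control libraries, changes of 0.23 ± 0.051 (adjusted p = 0.00291) in knockdown cells and 0.59 ± 0.051 (adjusted p = 1.33e-07) with PRGL493. MCM7 shares exon bases with AP4M1 on the other strand and has estimated, non-whole counts in 8 of 9 libraries, so its reads may be partly shared. MCM5 was at 38.5, 45.5 and 42.6 CPM in knockdown, 58.7, 53.4 and 50.6 CPM in PRGL493 and 34, 32.9 and 34.7 CPM in control libraries, with changes of 0.32 ± 0.072 (adjusted p = 0.00346) in knockdown cells and 0.68 ± 0.072 (adjusted p = 1.38e-06) with PRGL493. MCM2 was at 62.2, 70.4 and 65.2 CPM in knockdown, 73.4, 71.3 and 71.3 CPM in PRGL493 and 55.6, 55.6 and 51.1 CPM in control libraries, with changes of 0.28 ± 0.060 (adjusted p = 0.00189) in knockdown cells and 0.41 ± 0.060 (adjusted p = 4.19e-05) with PRGL493. In all of these subunits the treated and control libraries did not overlap. The same held for 42% of all genes tested in knockdown cells and 57.2% with PRGL493.

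Of the 10 roles, origin recognition and licensing had the largest median change in knockdown cells. All 4 were higher in knockdown cells, with a median log2 fold change of 0.54, and 3 of 4 with PRGL493, with a median of 0.42. ORC6, the smallest subunit of the origin recognition complex, had 19, 22.3 and 20.5 CPM in knockdown libraries, 14.5, 13 and 15 CPM in PRGL493 libraries and 11.8, 10.9 and 11 CPM in control libraries. The 3 groups were separate, and the fold over control was 1.83 in knockdown cells (log2 0.88 ± 0.084, adjusted p = 7.23e-07) and 1.26 with PRGL493 (0.34 ± 0.086, adjusted p = 0.00470). CDC6, the ATPase that helps load the MCM ring, had 76.2, 79.8 and 75.6 CPM in knockdown, 58.4, 55.6 and 54.8 CPM in PRGL493 and 56, 54.4 and 57.4 CPM in control libraries. Knockdown libraries stood above all others, while PRGL493 and control libraries overlapped. The change was 0.47 ± 0.054 (adjusted p = 7.31e-06) in knockdown cells and 0.010 ± 0.055 (adjusted p = 0.904, 95% interval −0.11 to 0.13) with PRGL493.

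ORC1, the ATPase subunit of the origin recognition complex, was among the least abundant members. It had 7.53, 8.51 and 8.18 CPM in knockdown, 8.83, 9.23 and 8.21 CPM in PRGL493 and 5.5, 5.45 and 4.95 CPM in control libraries. The treated libraries lay above all control libraries and overlapped one another, with changes of 0.61 ± 0.099 (adjusted p = 0.000236) in knockdown cells and 0.72 ± 0.10 (adjusted p = 2.37e-05) with PRGL493. CDT1, which brings the MCM ring to the origin with CDC6, changed by 0.44 ± 0.071 (adjusted p = 0.000189) in knockdown cells and 0.51 ± 0.072 (adjusted p = 2.95e-05) with PRGL493, its libraries spanning 20.9 to 21.7 CPM in knockdown, 21.2 to 22.7 CPM in PRGL493 and 14.6 to 16.6 CPM in control.

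Among the 6 genes of helicase activation, 4 were higher in knockdown cells and all 6 with PRGL493. MCM10, which helps start the assembled helicase, had 22.9, 19.4 and 21.6 CPM in knockdown, 24.7, 24.2 and 25 CPM in PRGL493 and 16.8, 17.4 and 16.4 CPM in control libraries. No library overlapped between groups, and the changes were 0.34 ± 0.073 (adjusted p = 0.00222) in knockdown cells and 0.55 ± 0.073 (adjusted p = 1.72e-05) with PRGL493. GINS1, a subunit of the GINS complex that joins the helicase, had 33.1, 32.7 and 31.6 CPM in knockdown, 30, 30.8 and 30.5 CPM in PRGL493 and 26.5, 22 and 25.6 CPM in control libraries. Its order differed from that of MCM10: knockdown libraries were highest, at 0.39 ± 0.070 (adjusted p = 0.000501), with PRGL493 at 0.30 ± 0.071 (adjusted p = 0.00265), and the difference between them was not called (0.093 ± 0.069, adjusted p = 0.275). The other GINS subunits did not move as one. GINS2 changed by 0.55 ± 0.14 (adjusted p = 0.00889) in knockdown cells and 0.64 ± 0.14 (adjusted p = 0.00216) with PRGL493, while GINS3 and GINS4 were not called in knockdown cells (0.12 ± 0.084 and 0.055 ± 0.083) and were higher with PRGL493 (0.40 ± 0.084 and 0.33 ± 0.083, adjusted p = 0.00104 and 0.00389). CDC45, the third partner of the active helicase, changed by 0.25 ± 0.082 (adjusted p = 0.0304) in knockdown cells, a call lost without control library 2, control library 3 or knockdown library 2, and by 0.43 ± 0.082 (adjusted p = 0.000511) with PRGL493.

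**Figure D2:**
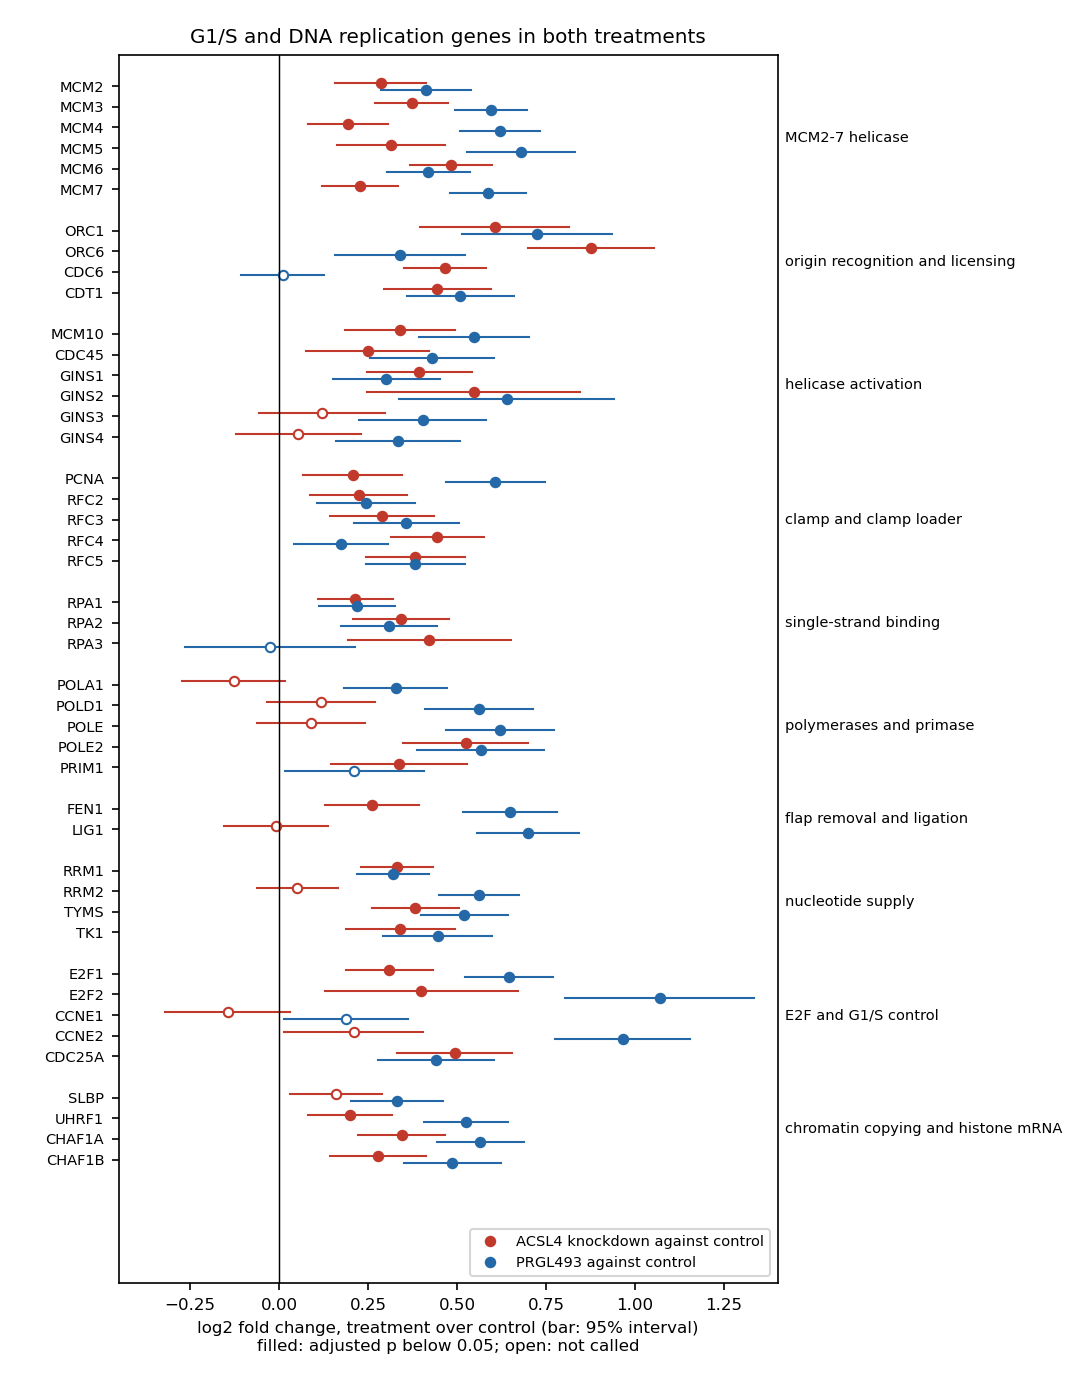
Log2 fold change of each member over control (points) with 95% intervals (bars), for ACSL4 knockdown (red) and PRGL493 (blue), grouped by role; filled points have an adjusted p below 0.05. Most points lie to the right of 0, and the blue point lies right of the red one for most genes, with ORC6, CDC6, RFC4 and RPA3 the clearest in the other order.

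All 5 genes of the sliding clamp and its loader were higher in both treatments. PCNA, the ring that tethers polymerases to DNA, had 83.8, 102 and 91.9 CPM in knockdown, 124, 121 and 122 CPM in PRGL493 and 76.7, 84 and 80.1 CPM in control libraries. The lowest knockdown library fell within the control range, and all PRGL493 libraries stood above the rest. Its change was 0.61 ± 0.066 (adjusted p = 1.82e-06) with PRGL493, a fold of 1.52. In knockdown cells it was 0.21 ± 0.066 (adjusted p = 0.0249), and this call was lost in 7 of 19 alternatives, with an adjusted p of up to 0.138, among them removal of the length and GC trend and leaving out control library 1, control library 3, knockdown library 2 or knockdown library 3. PCNA has 3 named pseudogenes, and its counts were non-whole in all 9 libraries.

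RFC4, a subunit of the clamp loader, had 41.7, 45.2 and 39.9 CPM in knockdown, 35.6, 34.7 and 34.7 CPM in PRGL493 and 30.2, 31.4 and 31.5 CPM in control libraries. The 3 groups were separate, with knockdown highest and PRGL493 between the others. The change was 0.44 ± 0.062 (adjusted p = 4.85e-05) in knockdown cells. With PRGL493 it was 0.18 ± 0.062 (adjusted p = 0.0327), a call lost in 9 of 19 alternatives, which include leaving out any control or PRGL493 library. RFC2, RFC3 and RFC5 changed by 0.22 to 0.38 in knockdown cells and 0.24 to 0.38 with PRGL493, and the call of RFC2 in knockdown cells was lost without control library 3 (adjusted p = 0.0661).

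The 3 subunits of RPA, which coats single-stranded DNA at the fork, were all higher in knockdown cells, and 2 of 3 with PRGL493. RPA2 had 51.7, 56.7 and 50 CPM in knockdown, 53.1, 49 and 52.2 CPM in PRGL493 and 39.4, 42.7 and 42.7 CPM in control libraries. Treated libraries overlapped one another and lay above the control libraries, at 0.34 ± 0.064 (adjusted p = 0.000700) in knockdown cells and 0.31 ± 0.064 (adjusted p = 0.00101) with PRGL493. RPA3, the smallest subunit, had 7.66, 8.78 and 8.77 CPM in knockdown, 6.32, 5.38 and 6.69 CPM in PRGL493 and 6.19, 5.78 and 6.82 CPM in control libraries. Only its knockdown libraries were above the control range, at 0.42 ± 0.11 (adjusted p = 0.00761), and with PRGL493 the estimate was −0.026 ± 0.11 (adjusted p = 0.875, 95% interval −0.27 to 0.21). RPA1, the largest subunit, changed by 0.21 ± 0.050 in knockdown cells and 0.22 ± 0.050 with PRGL493. RPA3 shares exon bases with UMAD1 on the other strand.

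The replicative polymerases and primase were called more often with PRGL493 than in knockdown cells. With PRGL493, 4 of 5 were higher, with a median log2 fold change of 0.56, and in knockdown cells 2 of 5, with a median of 0.12. POLE, the catalytic subunit of the leading-strand polymerase epsilon, had 41.7, 36.1 and 41.9 CPM in knockdown, 58.1, 61.7 and 53.2 CPM in PRGL493 and 37.8, 36 and 38.7 CPM in control libraries. PRGL493 libraries stood above all others, while knockdown and control libraries overlapped. The change was 0.62 ± 0.072 (adjusted p = 3.55e-06) with PRGL493 and 0.089 ± 0.072 (adjusted p = 0.375, 95% interval −0.062 to 0.24) in knockdown cells. POLE2, a non-catalytic subunit of the same enzyme, had 16.5, 15.7 and 15.3 CPM in knockdown, 15.8, 16.9 and 16.4 CPM in PRGL493 and 11.1, 9.9 and 12.1 CPM in control libraries. Both treatments stood above control and overlapped one another, at 0.52 ± 0.083 (adjusted p = 0.000178) in knockdown cells and 0.57 ± 0.084 (adjusted p = 5.01e-05) with PRGL493.

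The remaining members of this role were singled out after their values were seen. POLD1, the catalytic subunit of polymerase delta, had 46.7, 49.4 and 47.3 CPM in knockdown, 66.1, 68 and 60.7 CPM in PRGL493 and 48.3, 44.4 and 39.3 CPM in control libraries, and POLA1, the catalytic subunit of polymerase alpha, had 42.9, 36.4 and 40.9 CPM in knockdown, 55.2, 57.8 and 51.8 CPM in PRGL493 and 41.9, 45.1 and 44.4 CPM in control libraries. In both genes the PRGL493 libraries were above the rest and the knockdown and control libraries overlapped. The changes with PRGL493 were 0.56 ± 0.072 (adjusted p = 1.03e-05) for POLD1 and 0.33 ± 0.068 (adjusted p = 0.00103) for POLA1, and those in knockdown cells were 0.12 ± 0.072 (adjusted p = 0.229) and −0.13 ± 0.068 (adjusted p = 0.172). POLE and POLD1 were called higher in knockdown cells when the length and GC trend was removed (adjusted p = 0.0029 and 0.00101). PRIM1, the small subunit of primase, was called in knockdown cells (0.34 ± 0.091, adjusted p = 0.0102) and not with PRGL493 (0.21 ± 0.093, adjusted p = 0.0770). PRIM1 shares exon bases with NACA on its own strand, so its counts are less certain.

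The enzymes that finish lagging-strand fragments, FEN1 and LIG1, were both over 1.5-fold higher with PRGL493. FEN1, which removes the flap, had 58.1, 68.4 and 62.1 CPM in knockdown, 82.6, 80.2 and 83.6 CPM in PRGL493 and 53, 53.8 and 50.5 CPM in control libraries. The 3 groups were separate, at 0.26 ± 0.062 (adjusted p = 0.00461) in knockdown cells and 0.65 ± 0.062 (adjusted p = 4.82e-07) with PRGL493. FEN1 shares exon bases on its own strand with FADS2, which lay at 97.8 to 107 CPM in knockdown, 310 to 331 CPM in PRGL493 and 136 to 152 CPM in control libraries, and the part of FADS2 reads in FEN1 was not tested. LIG1, which seals the nick and was singled out after its values were seen, had 26.9, 28.8 and 28 CPM in knockdown, 47.4, 45.6 and 43.6 CPM in PRGL493 and 30.7, 26.7 and 26.8 CPM in control libraries. PRGL493 libraries were far above the others, at 0.70 ± 0.068 (adjusted p = 5.47e-07), while the knockdown estimate was −0.0085 ± 0.069 (adjusted p = 0.939, 95% interval −0.15 to 0.14) with overlapping libraries.

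Of the 4 genes of nucleotide supply, 3 were higher in knockdown cells and all 4 with PRGL493, and the subunits of ribonucleotide reductase, which makes deoxyribonucleotides, parted. RRM1, the large subunit, had 173, 175 and 167 CPM in knockdown, 173, 167 and 172 CPM in PRGL493 and 133, 141 and 136 CPM in control libraries. Both treatments lay above control by nearly the same amount, 0.33 ± 0.048 (adjusted p = 7.23e-05) in knockdown cells and 0.32 ± 0.048 (adjusted p = 5.34e-05) with PRGL493. RRM2, the small subunit, had 73.9, 76.5 and 72.1 CPM in knockdown, 105, 103 and 109 CPM in PRGL493 and 71.3, 74.3 and 69.1 CPM in control libraries. Knockdown libraries overlapped with control, at 0.052 ± 0.054 (adjusted p = 0.504, 95% interval −0.061 to 0.16), and PRGL493 libraries stood above both, at 0.56 ± 0.053 (adjusted p = 4.26e-07). TYMS, thymidylate synthase, had 106, 123 and 114 CPM in knockdown, 129, 122 and 127 CPM in PRGL493 and 86.4, 90.5 and 86.5 CPM in control libraries, changes of 0.38 ± 0.058 (adjusted p = 0.000111) in knockdown cells and 0.52 ± 0.058 (adjusted p = 2.39e-06) with PRGL493. All treated TYMS libraries were above control, and its counts were non-whole in all 9 libraries beside an overlap with ENOSF1 on the other strand. TK1, the cytosolic thymidine kinase, changed by 0.34 ± 0.072 (adjusted p = 0.00206) in knockdown cells and 0.45 ± 0.072 (adjusted p = 0.000124) with PRGL493.

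Among the 5 genes of E2F and G1/S control, 3 were higher in knockdown cells and 4 with PRGL493. E2F1, an activator of S phase genes, had 43.3, 46.9 and 45.7 CPM in knockdown, 58.5, 56.8 and 56.1 CPM in PRGL493 and 37.6, 37 and 35 CPM in control libraries. The 3 groups were separate, at 0.31 ± 0.058 (adjusted p = 0.000765) in knockdown cells and 0.65 ± 0.058 (adjusted p = 2.15e-07) with PRGL493. E2F2, a second activator of that family and singled out after its values were seen, had the largest change with PRGL493. It had 4.79, 3.9 and 4.28 CPM in knockdown, 6.93, 7.17 and 6.6 CPM in PRGL493 and 3.63, 2.82 and 3.39 CPM in control libraries. The PRGL493 libraries did not overlap with either other group, at a fold of 2.10 (log2 1.07 ± 0.13, adjusted p = 4.31e-06). In knockdown cells it was 0.40 ± 0.13 (adjusted p = 0.0269), a call lost without knockdown library 1, knockdown library 3, control library 2 or control library 3.

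The E-type cyclins, which drive the kinase CDK2 at the G1/S boundary, differed from one another. CCNE2 had 9.56, 9.91 and 9.05 CPM in knockdown, 14.4, 17.2 and 16.6 CPM in PRGL493 and 8.06, 7.92 and 8.68 CPM in control libraries. The PRGL493 libraries were well above the rest, at a fold of 1.95 (log2 0.96 ± 0.090, adjusted p = 3.34e-07), and the knockdown libraries were slightly above control, at 0.21 ± 0.092 (adjusted p = 0.0969), which was not called. CCNE2 shares exon bases with INTS8 on the other strand, with non-whole counts in 7 libraries. CCNE1 had 13, 13.6 and 13 CPM in knockdown, 16.5, 16.4 and 17 CPM in PRGL493 and 16.2, 14.6 and 13 CPM in control libraries. Its control and knockdown libraries overlapped, and it was the one member called in neither treatment, at −0.14 ± 0.083 (adjusted p = 0.203, 95% interval −0.32 to 0.030) in knockdown cells and 0.19 ± 0.082 (adjusted p = 0.0754, 95% interval 0.015 to 0.36) with PRGL493. CDC25A, the phosphatase that activates CDK2, had 16.6, 18.2 and 17.3 CPM in knockdown, 17.7, 16.6 and 15.9 CPM in PRGL493 and 12, 13 and 12 CPM in control libraries. Treated libraries overlapped one another and lay above control, at 0.49 ± 0.076 (adjusted p = 0.000145) in knockdown cells and 0.44 ± 0.077 (adjusted p = 0.000248) with PRGL493.

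**Figure D3:**
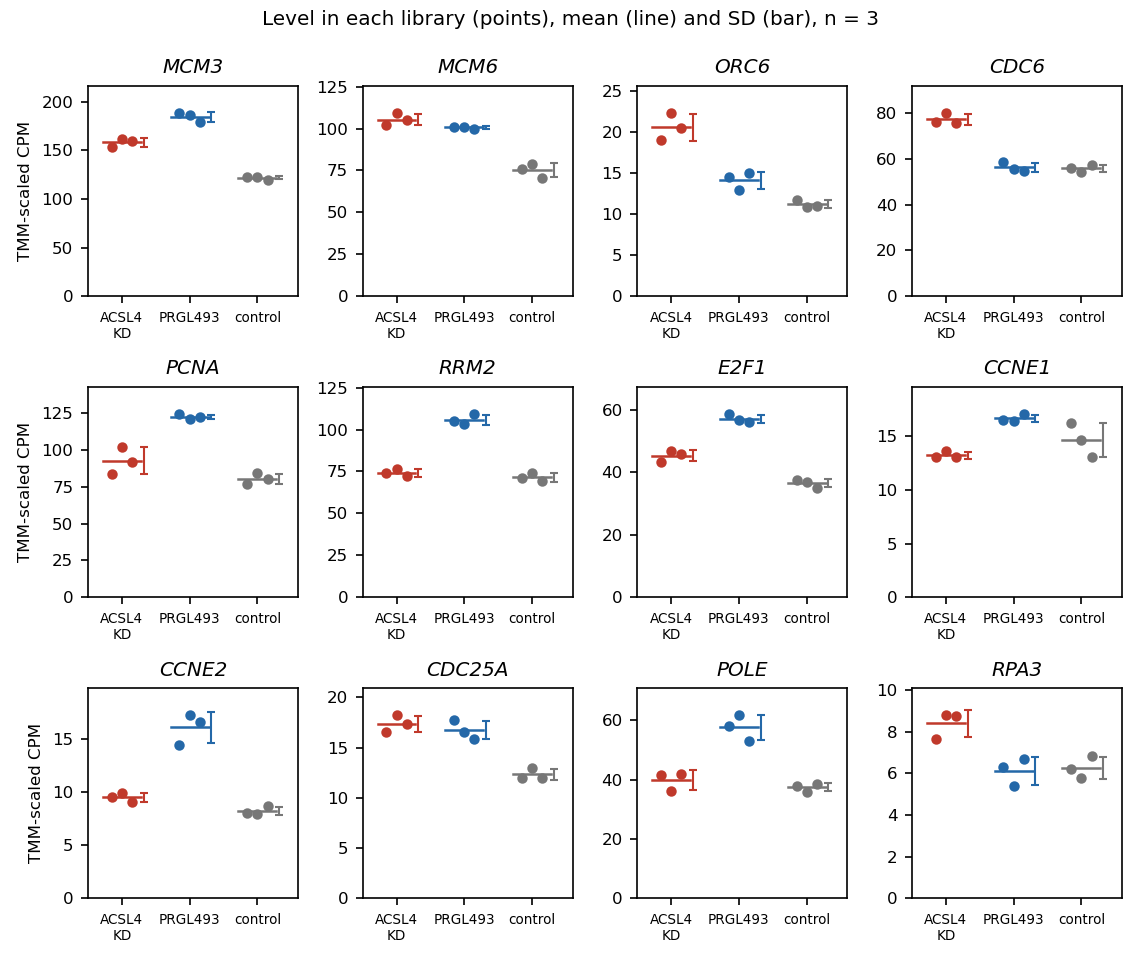
TMM-scaled CPM (vertical axes, from 0) of 12 members in each library, with the group mean (line) and SD (bar, n = 3), for ACSL4 knockdown, PRGL493 and control. CDC6, ORC6 and RPA3 are highest in the knockdown libraries, RRM2, CCNE2 and POLE in the PRGL493 libraries, and MCM6 and CDC25A are raised to similar levels in both.

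The 4 genes of chromatin copying and histone messages were all higher with PRGL493, and 3 of 4 in knockdown cells. CHAF1A, the large subunit of the chromatin assembly factor that places histones behind the fork, had 56.1, 53.2 and 56.1 CPM in knockdown, 63.7, 66 and 63.1 CPM in PRGL493 and 46.1, 41.3 and 42.8 CPM in control libraries. No group overlapped with another, at 0.34 ± 0.058 (adjusted p = 0.000310) in knockdown cells and 0.57 ± 0.058 (adjusted p = 1.01e-06) with PRGL493. CHAF1B, its partner, changed by 0.28 ± 0.064 (adjusted p = 0.00380) in knockdown cells and 0.49 ± 0.064 (adjusted p = 1.52e-05) with PRGL493. UHRF1, which guides DNA methylation onto new DNA, changed by 0.20 ± 0.056 (adjusted p = 0.0133, lost without control library 3 or knockdown library 3) in knockdown cells and 0.53 ± 0.056 (adjusted p = 1.62e-06) with PRGL493. SLBP, which binds the stem-loop of histone messages, was not called in knockdown cells (0.16 ± 0.061, adjusted p = 0.0561) and was higher with PRGL493 (0.33 ± 0.061, adjusted p = 0.000378).

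The treatments were then compared directly, since a call in one and not in the other does not show that they differ. ACSL4 knockdown cells were lower than PRGL493 cells in 22 members and higher in 4, with 18 not called and a median log2 difference of −0.18. Of all genes tested 26.0% were lower and 24.4% higher in knockdown than PRGL493 cells (50.4% either way), with a median of −0.01. The 9 members called with PRGL493 and not in knockdown cells (GINS3, GINS4, POLA1, POLD1, POLE, LIG1, RRM2, CCNE2 and SLBP) were all lower in knockdown than PRGL493 cells in this test. The differences were at least 1.5-fold in CCNE2 (−0.76 ± 0.087, adjusted p = 2.36e-06), LIG1 (−0.71 ± 0.067, adjusted p = 2.86e-07) and E2F2 (−0.67 ± 0.12, adjusted p = 0.000181). That is 6.82% of members, against 15.6% of all genes tested. MCM3, MCM4, MCM5, MCM7, PCNA, FEN1 and E2F1 were higher than control in both treatments and lower in knockdown than PRGL493 cells by 0.22 to 0.43 on the log2 scale. The calls of CHAF1B without PRGL493 library 1 (adjusted p = 0.0623), of MCM10 without knockdown library 2 or any PRGL493 library and of SLBP without knockdown library 1 or 3 or PRGL493 library 1 or 3 were lost. With the length and GC trend removed, 30 members were lower and 3 higher in knockdown than PRGL493 cells. CDC45, RFC2, RFC3, RFC5, RPA2, POLE2, TYMS and TK1, with no call before, were then lower in knockdown cells by 0.11 to 0.29 on the log2 scale. Without knockdown library 2, 25 were lower, and CDC45, TYMS and TK1 were again among those gained, with MCM2. CCNE1, called in neither treatment, was lower in knockdown than PRGL493 cells (−0.33 ± 0.082, adjusted p = 0.00270).

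Of the 4 members with the opposite order, 2 were among the 4 genes of origin recognition and licensing. The others were 1 of 5 clamp and clamp loader genes and 1 of 3 single-strand binding genes. Among the remaining genes of these roles, PCNA was lower in knockdown than PRGL493 cells and the rest were not called. ORC6 (0.54 ± 0.081, adjusted p = 4.13e-05), CDC6 (0.46 ± 0.054, adjusted p = 3.19e-06) and RPA3 (0.45 ± 0.11, adjusted p = 0.00241) were higher in knockdown than PRGL493 cells under all 19 alternatives. RFC4 was higher in knockdown cells by 0.27 ± 0.061 (adjusted p = 0.00150), and this call was lost when the length and GC trend was removed (adjusted p of up to 0.124). The 18 members with no call between treatments include MCM6 (0.063 ± 0.054, 95% interval −0.051 to 0.18), RRM1 (0.010 ± 0.048, 95% interval −0.090 to 0.11) and CDC25A (0.052 ± 0.074, 95% interval −0.10 to 0.21). Those intervals limit how far the treatments could differ there and do not show that they act alike. Both treatments share the 3 control libraries, so their values against control are set side by side and their likeness was not measured.

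Members also differed widely in level. Per kilobase of transcript in control cells, TK1 was highest at 61.6 ± 2.32 CPM per kilobase, followed by PCNA at 59 ± 2.68 and TYMS at 52.8 ± 1.42, and E2F2 was lowest at 0.633 ± 0.0803, below ORC1 at 1.68 ± 0.0963 and CCNE2 at 2.47 ± 0.122 (means ± SD, n = 3). The highest exceeded the lowest by 97.3-fold, while TK1 and PCNA overlapped in their libraries. The subunits of the MCM ring, which the protein holds in equal numbers, spanned 4.76-fold in control cells on this scale. MCM7 was at 45.6 ± 0.656 CPM per kilobase, MCM3 at 38.1 ± 0.625, MCM6 at 20.1 ± 1.12, MCM4 at 17.8 ± 0.367, MCM2 at 14.9 ± 0.725 and MCM5 at 9.58 ± 0.25. This scale divides by 1 transcript's length a gene and is approximate where other isoforms are made.

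Genes next to the members in the pathway had smaller medians. The 80 tested genes came from 5 lists of other replication, nucleotide, G1/S, CDK inhibitor and chromatin copying genes. In knockdown cells 24 were higher and 6 lower (30% and 7.5%, against 14.7% and 15.3% of all genes tested), with a median log2 fold change of 0.09. With PRGL493 34 were higher and 9 lower (42.5% and 11.2%, against 21.4% and 20.4%), with a median of 0.11. Of 32 other fork and origin genes, 12 were higher and 1 lower in knockdown cells (37.5% and 3.12%). With PRGL493 16 of these were higher and 1 lower (50% and 3.12%). TICRR, which helps fire origins, had 17.4, 14.6 and 19.5 CPM in knockdown, 18.6, 18.7 and 16.6 CPM in PRGL493 and 11, 9.51 and 11.6 CPM in control libraries, at 0.68 ± 0.11 (adjusted p = 0.000151) in knockdown cells and 0.74 ± 0.11 (adjusted p = 3.58e-05) with PRGL493. GMNN, the inhibitor of CDT1, was higher in knockdown cells (0.41 ± 0.073) and with PRGL493 (0.52 ± 0.074), POLE3, a polymerase epsilon subunit, was called higher in knockdown cells (0.38 ± 0.051), and CLSPN, a fork checkpoint mediator, and its partner TIMELESS reached 0.68 ± 0.067 and 0.51 ± 0.058 with PRGL493. DBF4, the activator of the origin kinase CDC7, was the 1 gene lower with PRGL493 (−0.26 ± 0.067, adjusted p = 0.00492). MCM9, a helicase of recombination repair, had 4.08, 3.5 and 3.21 CPM in knockdown, 10, 9.61 and 8.74 CPM in PRGL493 and 4.75, 4.22 and 4.22 CPM in control libraries. Its PRGL493 libraries stood above all others, at 1.11 ± 0.11 (adjusted p = 1.06e-06). Its knockdown libraries lay below all control libraries, and the change was not called (−0.28 ± 0.12, adjusted p = 0.0911). MCM8, its partner, was lower in knockdown cells (−0.31 ± 0.084, adjusted p = 0.0105) and higher with PRGL493 (0.27 ± 0.083, adjusted p = 0.0156).

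The other nucleotide genes did not follow RRM1, TYMS and TK1. Of 12 tested, 1 was higher and 2 lower in knockdown cells (8.33% and 16.7%, against 14.7% and 15.3% of all genes tested). With PRGL493 4 were higher and 2 lower (33.3% and 16.7%, against 21.4% and 20.4%). RRM2B, the p53-inducible reductase subunit, had 40.3, 34.3 and 34.3 CPM in knockdown, 62.9, 66.2 and 72.1 CPM in PRGL493 and 56.5, 56.8 and 60 CPM in control libraries. It was lower in knockdown cells (−0.67 ± 0.072, adjusted p = 2.93e-06) and higher with PRGL493 (0.22 ± 0.070, adjusted p = 0.0207), as was SAMHD1, which degrades deoxyribonucleotides (−0.39 ± 0.077 in knockdown cells and 0.23 ± 0.076 with PRGL493). DUT was higher in knockdown cells (0.24 ± 0.068), and with PRGL493 IMPDH2 and CAD were lower (−0.28 ± 0.059 and −0.23 ± 0.067) while TK2 was higher (0.26 ± 0.061). Of 7 other chromatin copying genes, 2 were higher in knockdown cells, NASP (0.33 ± 0.049) and ASF1B (0.26 ± 0.062), and with PRGL493 ASF1B (0.51 ± 0.062), DNMT1 (0.37 ± 0.056) and NASP (0.20 ± 0.050) were higher and ASF1A (−0.42 ± 0.072) was lower.

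Of 24 other G1/S control genes, 8 were higher and 2 lower in knockdown cells (33.3% and 8.33%, against 14.7% and 15.3% of all genes tested). With PRGL493 9 were higher and 3 lower (37.5% and 12.5%, against 21.4% and 20.4%). MYBL2, a cell cycle transcription factor, had 105, 115 and 102 CPM in knockdown, 68.4, 71.1 and 68.3 CPM in PRGL493 and 65.1, 68 and 64.3 CPM in control libraries. Knockdown libraries were far above the others, at 0.71 ± 0.057 (adjusted p = 8.49e-08), and the PRGL493 estimate was 0.074 ± 0.058 (adjusted p = 0.327). CDK4, the kinase partner of D-type cyclins, had 139, 165 and 146 CPM in knockdown, 96, 91.6 and 91.1 CPM in PRGL493 and 125, 133 and 125 CPM in control libraries. It was higher in knockdown cells (0.23 ± 0.062, adjusted p = 0.0106) and lower with PRGL493 (−0.46 ± 0.062, adjusted p = 1.87e-05). SKP2 and DTL, which mark inhibitors and CDT1 for destruction, were higher in knockdown cells (0.48 ± 0.067 and 0.38 ± 0.058) and with PRGL493 (0.26 ± 0.068 and 0.55 ± 0.059), and the repressor E2F5 was lower with PRGL493 (−0.73 ± 0.072, adjusted p = 6.07e-07). The other lower genes were CCND1, cyclin D1 (−0.28 ± 0.046), and TFDP1, an E2F partner (−0.20 ± 0.048), in knockdown cells and CDK6 (−0.37 ± 0.12) with PRGL493. Of the genes beside the members, DBF4, CAD, CCND1, TFDP1 and CDK6 were named after their values were seen.

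Of 7 CDK inhibitors 5 passed the filter, and they did not share a direction. CDKN1A, which encodes p21, had 139, 169 and 157 CPM in knockdown, 246, 235 and 234 CPM in PRGL493 and 281, 273 and 272 CPM in control libraries. The 3 groups were separate, and it was lower in both treatments, at −0.83 ± 0.060 (adjusted p = 2.33e-08) in knockdown cells and −0.21 ± 0.060 (adjusted p = 0.0106) with PRGL493. CDKN1B, which encodes p27, had 57.2, 59 and 59.1 CPM in knockdown, 58.8, 57.4 and 62.3 CPM in PRGL493 and 34.7, 35.8 and 36.7 CPM in control libraries. It was higher in both treatments, at 0.71 ± 0.057 (adjusted p = 7.33e-08) in knockdown cells and 0.74 ± 0.057 (adjusted p = 3.47e-08) with PRGL493. With PRGL493, CDKN1C (p57) was lower (−0.64 ± 0.096, adjusted p = 5.07e-05) and CDKN2C (p18) was higher (0.65 ± 0.087, adjusted p = 1.65e-05), while neither was called in knockdown cells (−0.11 ± 0.091 and 0.18 ± 0.087). CDKN2D (p19) was called in neither treatment (0.078 ± 0.067 in knockdown cells and −0.026 ± 0.068 with PRGL493).

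Genes of the next phase, G2 and mitosis, followed the members in knockdown cells and much less with PRGL493. Of 26 such genes, 19 were higher in knockdown cells (73.1%, against 14.7% of all genes tested) and none lower, with a median log2 fold change of 0.25. With PRGL493 7 were higher and none lower, with a median of 0.07. The share higher was 26.9%, near the 21.4% of all genes tested. In the direct test 17 of the 26 were higher in knockdown than PRGL493 cells (65.4%, against 24.4% of all genes tested) and none lower, with a median of 0.20. This is the opposite order to that of the 22 members lower in that test. With the length and GC trend removed the direct test called 12 higher (11 with the replicate block also fitted) and 2 lower, the proliferation marker MKI67 (−0.39, adjusted p = 0.0192) and the spindle motor KIF11 (−0.09, adjusted p = 0.0278), both named after their values were seen. MKI67 was also lower without knockdown library 2 and in the DESeq2 test, and KIF11 without knockdown library 1. With PRGL493, 4 and 3 genes were higher than control without PRGL493 library 1 and 2, and other alternatives called up to 4 genes lower than control, from among CDC20, UBE2C, CENPE and CENPF. CDC20, an activator of the anaphase-promoting complex, had 99.9, 119 and 108 CPM in knockdown, 77.8, 75.2 and 79.9 CPM in PRGL493 and 87.3, 86.8 and 85.8 CPM in control libraries. Knockdown libraries were highest, and the difference between knockdown and PRGL493 cells was 0.49 ± 0.062 (adjusted p = 5.85e-06). UBE2C, the ubiquitin-conjugating enzyme of that complex, and CCNB1, cyclin B1, differed by 0.52 ± 0.072 (adjusted p = 1.84e-05) and 0.32 ± 0.050 (adjusted p = 5.05e-05). The mitotic kinase AURKB, its partner BIRC5 and cyclin A2, CCNA2, were higher in both treatments, at 0.50 ± 0.072, 0.45 ± 0.065 and 0.35 ± 0.055 in knockdown cells and 0.32 ± 0.073, 0.49 ± 0.065 and 0.20 ± 0.055 with PRGL493. The per-library medians of this list were 0.23, 0.27 and 0.20 in knockdown libraries and 0.09, 0.08 and 0.07 in PRGL493 libraries, against −0.01, 0.00 and 0.01 in control libraries.

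**Figure D4:**
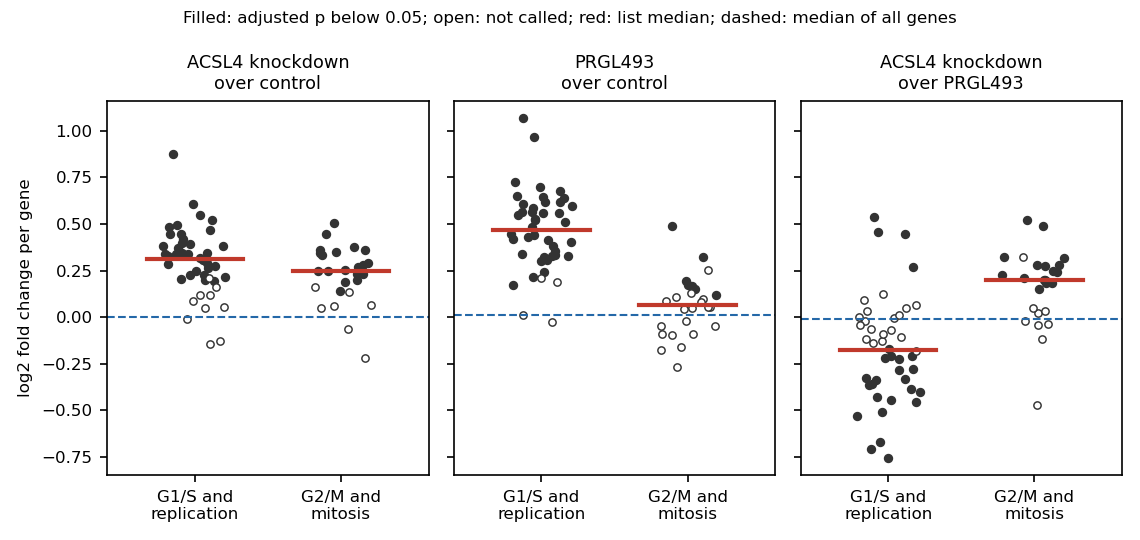
Log2 fold change of each gene (points; filled where the adjusted p is below 0.05) of the 44 G1/S and replication genes and of 26 G2/M genes in the 3 comparisons, with list medians (red) and the median of all genes (dashed). Both lists lie above 0 in knockdown over control, mainly the replication genes do so in PRGL493 over control, and the lists part in opposite directions in knockdown over PRGL493.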

How the data were processed

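RNA of 9 MDA-MB-231 libraries was sequenced, 3 each from ACSL4 knockdown, PRGL493 and control cells, and the authors deposited 1 table of 26475 gene symbols with expected counts (estimated counts, 10.5% of values not whole). The genome build was GRCh38, per the submitters' processing notes, while no source used here gives the aligner, the counting tool or its use of strand. The members, role groups and gene lists were chosen with earlier results of these data known. Counts were rounded, genes kept by edgeR's filterByExpr (14135 of 26475) and scaled by TMM, and group was fitted across all 9 libraries with edgeR 4.0.16 (limma 3.58.1, R 4.3.3; robust quasi-likelihood fit, 6 residual degrees of freedom, biological coefficient of variation 6.38%). Benjamini-Hochberg adjusted p-values over all genes below 0.05 were called. Intervals are 95% intervals of the fit. Named members were the MCM ring, CDC6, PCNA, E2F1, the E-type cyclins, CDC25A, RRM2 and TYMS, the member with the smallest adjusted p of each role and treatment, those called against the majority, and up to 3 called genes per other list. Transcript lengths, gene positions and overlaps came from the GENCODE annotation and promoters from RefSeq. Totals were 28673940 to 43027217 counts per library, and for the members with the fewest counts, from 87, counting error is not small against the spread between batches. In 19 alternatives the scaling, filter, tool (DESeq2 1.42.0), samples, block, length and GC trend, or 1 library was changed. Values of 1 listed gene and 1 listed marker are not reported here.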

Additional observations from a re-analysis of the deposited data

How the results depend on the processing

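Over 19 alternatives, 9 of which leave out 1 library, 2428 of 2508 single member values kept direction and call, 43 lost the call, 36 gained one and 1 reversed. In knockdown against control 28 of the 34 calls held in all 19, with PRGL493 39 of 40, and between the treatments 22 of 26. Leaving out 1 library gave 29 to 34 members higher in knockdown cells (median log2 fold change 0.27 to 0.32) and 39 to 42 with PRGL493 (0.44 to 0.48), and between the treatments 4 higher and 19 to 25 lower (−0.22 to −0.13). The other alternatives gave 32 to 35 members higher in knockdown cells, 39 to 42 with PRGL493, and between the treatments 3 to 4 higher and 20 to 30 lower, with most lower when the length and GC trend was removed. With upper-quartile scaling the median between the treatments was −0.12, against −0.18. With the length and GC trend removed, alone or together with the replicate block, 1 member, CCNE1, was called lower in knockdown cells (lowest adjusted p = 0.0355). With that trend removed, RPA2 reversed between the treatments, at −0.11 (adjusted p = 0.0477), against 0.035 with no call. The cause was not tested. With the replicate block 34 members were higher in knockdown cells, 39 with PRGL493, and 4 higher and 22 lower between the treatments. Whether the replicate numbers pair the samples was not settled. Same-numbered control and knockdown libraries correlated at 0.062 to 0.152, and those of PRGL493 with either group at −0.084 to −0.015. Of 9 libraries, 6 correlated best with their own number. Of all genes called in knockdown against control 49% were higher, against 59.8% with library totals and 58.7% with upper-quartile scaling, and between the treatments 48.4%, against 58.4% with upper-quartile scaling. Both the 3 batches a group and, for members with the fewest counts (from 87), depth limit what small changes can be called.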
